A study of Mus musculus with 4 samples.

Results

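The cytosolic ribosomal protein genes were taken by symbol from the gene columns of 4 single-cell libraries of the mouse prefrontal cortex (PFC): symbols that begin with Rpl or Rps and a digit or with Rplp and a digit, together with Rpsa, leaving out names with a hyphen and the Rps6k kinases. The rule took 86 of 29281 genes, and all 86 had a column in every library. Of these, 77 encode canonical proteins of the ribosome, 46 of the large and 31 of the small subunit. The other 9 were the paralogs Rpl10l, Rpl22l1, Rpl36al, Rpl39l, Rpl3l, Rpl7l1 and Rps27l, the retrogene Rps27rt, and Rps19bp1, which encodes a protein that binds Rps19 and is not itself a ribosomal protein. The rule used no measured value.

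The PFC of C57BL/6J mice was taken at postnatal day 1 (P1), day 4 (P4), day 10 (P10) and in the adult (day 84). Brain slices were placed in cold medium that held the transcription inhibitor actinomycin D, and the PFC tissue was then digested with protease XXIII and papain. The cells were captured with BD Rhapsody, a microwell system that reads the 3′ end of mRNA. Each age was 1 library from 2 untreated female mice, and no column ties a cell to a mouse. Cells were kept that held 1000 or more unique molecular identifiers (UMIs, each 1 captured mRNA molecule) and 1000 or more genes, with a mitochondrial part of up to 15% of UMIs, which left 11545 cells at P1 and 19014 at P4, then 15272 at P10 and 14087 in the adult. With 1 library per age, a difference between ages has no replicate check, so no p-value is given, and all intervals are 95% intervals that cover counting error only.

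The P1 library stood apart: the header of its file names Enhanced beads, P0 as the library and version 1.11 of the vendor's pipeline, and those of the other files name version 1.8. Age and library cannot be told apart at any step, and at P1 to P4 the change of version comes with it. The libraries shared 10 to 323 cell numbers per pair, their total UMIs lay between 200198548 and 340724049, and the median UMIs per cell lay between 11065 and 25800. Cells were clustered within each library without the ribosomal protein genes, and clusters were named by marker genes as like intratelencephalic neurons (IT), layer 5 pyramidal tract (L5 PT), layer 5 near-projecting (L5 NP) and layer 6 corticothalamic (L6 CT) neurons, inhibitory neurons, astrocytes, oligodendrocyte precursors (OPC), oligodendrocytes, microglia and endothelial cells. Clusters that met no naming rule held 1811, 2834, 1318 and 897 cells in age order, and no cluster was named for neural progenitors. No marker of a named class was at 0 in it. The IT-like class was the one given where no other list scored high, and 2 of its clusters, each with Npy and Fosl2 among their leading genes, scored higher for L5 PT than for IT markers (695 cells of P1, 0.59 and 0.41, and 1202 of P10, 0.45 and 0.30, as mean log2 differences from the other clusters). Another IT-like cluster of P1, of 494 cells, was led by Eomes, a gene of intermediate progenitors, and no IT-like cluster of a later age had it among its 10 leading genes. IT-like cells had 9 markers, and 7 of them at P1, 9 at P4 and 8 in each later library were higher than in all other cells of the library.

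The ribosome decodes mRNA on its small subunit and forms peptide bonds on its large subunit, and a cell needs the proteins of both subunits in matched amounts. Their mRNAs are among the most abundant of growing cells. Many of them begin with a C followed by an unbroken run of pyrimidines, the 5′ terminal oligopyrimidine (TOP) tract, through which the mTOR pathway and the protein Larp1 govern their translation and stability.

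RefSeq start windows (build GRCm38.p6) were held for 66 of the 86 genes. Among those with no entry were Rpl17, Rpl21, Rpl23a, Rpl29, Rpl3, Rpl30, Rpl32, Rpl36, Rpl7, Rpl8, Rplp1, Rps14, Rps20, Rps27a and Rps29. A C followed by at least 4 pyrimidines stood at the annotated start of 14 of the 66 (21.2%), against 2.96% of the 26956 other genes. A run of at least 5 pyrimidines that began with C, within 10 bases of the start on either side, stood in 60.6% of the 66 and in 34.3% of the other genes. A gene was counted when any of its annotated starts met the rule, and the search read only the strand of the gene. The windows below run from 10 bases before the annotated start to 20 bases from it, 5′ to 3′, and the capitals mark the longest run of pyrimidines that begins with a C within 10 bases of the annotated start. The first 4 have a tract at the annotated start (Rps21 has 2 annotated starts, of which the other, not printed, has none). The last 4 belong to genes whose ratios between P4 and the adult stood at the ends of the range described below. Rps21 also stood near the upper end (−0.72), as did Rps10 (−0.58), which has a tract at its start and is not printed.
Rps6, chr4:86857348-86857377, minus strand: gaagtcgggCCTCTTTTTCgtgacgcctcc
Rplp2, chr7:141447641-141447670, plus strand: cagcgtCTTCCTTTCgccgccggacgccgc
Rps21, chr2:180257369-180257398, plus strand: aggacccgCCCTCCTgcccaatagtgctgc
Rps27, chr3:90213629-90213658, minus strand: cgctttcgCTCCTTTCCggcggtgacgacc
Rplp0, chr5:115559457-115559486, plus strand: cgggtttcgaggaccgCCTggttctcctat
Rps12, chr10:23787190-23787219, minus strand: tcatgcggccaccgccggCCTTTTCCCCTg
Rpl22l1, chr3:28805498-28805527, plus strand: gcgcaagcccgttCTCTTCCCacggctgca
Rpl7l1, chr17:46782637-46782666, minus strand: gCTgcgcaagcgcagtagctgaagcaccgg
In Rps12 the run lay inside the window but after the annotated start, and in Rplp0 and Rpl7l1 no run of 5 or more began within those 10 bases. A match describes these letters at this annotated start and is not a mapped start of transcription.

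The share of UMIs that came from the ribosomal protein genes was lower at each later age over all cells and over all IT-like cells. Over all cells it was 2.96% at P1 and 2.75% at P4, then 1.79% at P10 and 1.25% in the adult. In IT-like cells, the excitatory neurons that project within the cortex, it was 3.04% at P1 (5474 cells) and 2.77% at P4 (7664 cells), then 1.57% at P10 (4392 cells) and 1.01% in the adult (4050 cells). The log2 ratio of the adult over the P4 share was −1.14 over all cells and −1.46 in IT-like cells. The mean number of ribosomal protein UMIs per IT-like cell was 945 at P1 and 449.6 at P4, then 413 at P10 and 206 in the adult. The IT-like cells of P10 held more UMIs of all genes than those of P4, so between these ages the number per cell differed less than the share did.

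The depth of a cell moved with its share in a direction that differed between ages. When IT-like cells were split into 3 parts of equal cell number by their UMIs, from the shallowest to the deepest the share was 2.96%, 2.80% and 2.70% at P4 and 0.831%, 0.984% and 1.08% in the adult. Each part of the adult cells stood below each part of those of P4. The 4 IT-like clusters of P4 had shares of 2.52% to 3.26%, the 3 of P10 1.5% to 1.63% and the 2 of the adult 0.958% to 1.03%, so the clusters of these ages did not overlap. The 4 of P1, at 2.58% to 3.11%, lay within the range of those of P4. These clusters, like the parts by depth, divide 1 library per age and are not replicates. They do not measure the spread between libraries or mice.

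Every class named at both P4 and the adult had a lower share in the adult, with log2 ratios from −1.66 to −0.02 over 8 classes. Inhibitory-like cells went from 2.79% to 1.22%. At P4 this class lacked a cluster of 1054 cells led by Sst, which stayed unnamed (2.64%), while Sst-led clusters were in the class at the other ages, so the cells compared differ. L5 PT-like cells went from 2.54% to 1.08% and L6 CT-like cells from 2.37% to 1.07%. Astrocyte-like cells, which take up glutamate and support synapses, had 2.72% at P4, 1.41% at P10 and 0.859% in the adult. Endothelial-like cells, which line the vessels, had 5.78%, 4.37% and 2.35% at the same ages. Without cells that Scrublet, a caller of doublets, had marked, these endothelial-like shares were 6.96%, 5.72% and 2.97%. The remaining cells were clustered and named anew for this. The endothelial-like class of P4 then held 178 cells in place of 309, so its make-up was not the same.

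Microglia-like cells, the resident macrophages of the brain, had 5.98% at P1 (34 cells) and 5.27% at P4 (85 cells), then 6.70% at P10 (708 cells) and 5.19% in the adult (1117 cells). Their shares at P4 and in the adult were thus close, and the value of P10 was the highest. Of the 85 microglia-like cells of P4, 29.4% were marked by Scrublet, and without marked cells the shares were 5.95% at P4, 6.85% at P10 and 5.36% in the adult. The log2 ratio of P10 over P4, 0.35 with all cells, is therefore smaller without them. Among the clusters of P4 that were not named, the one led by Top2a and Mki67, genes of dividing cells, had 4.11% (553 cells), and the one led by Sst, a neuropeptide of inhibitory neurons, had 2.64% (1054 cells).

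The classes differed in when the share was lower. In IT-like and astrocyte-like cells the larger step was P4 to P10, with log2 ratios of −0.82 and −0.95, against −0.64 and −0.72 for P10 to the adult. It was also the larger in L5 PT-like cells (−0.71 and −0.52) and inhibitory-like cells (−0.65 and −0.54). L6 CT-like cells had the larger step later (−0.48 and −0.66). In OPC-like cells, the dividing precursors of oligodendrocytes, the log2 ratio was −0.54 for P4 to P10 and −1.01 for P10 to the adult. In endothelial-like cells it was −0.41 and −0.89. Microglia-like cells had 0.35 and −0.37. Between P1 and P4, L6 CT-like cells had a higher share at P4 (2.11% and 2.37%), and the other 7 classes a lower one. The direction of the endothelial-like cells turned without Scrublet-marked cells (6.45% and 6.96%). It also turned with a stricter cell filter of 2000 UMIs, 1500 genes and 10% mitochondrial UMIs (5.33% and 5.83%). Clusters were made and named anew in both settings. With that filter, no cluster of P4 was named OPC-like, so the steps of that class from P4 could not be followed there.

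**Figure D1:**
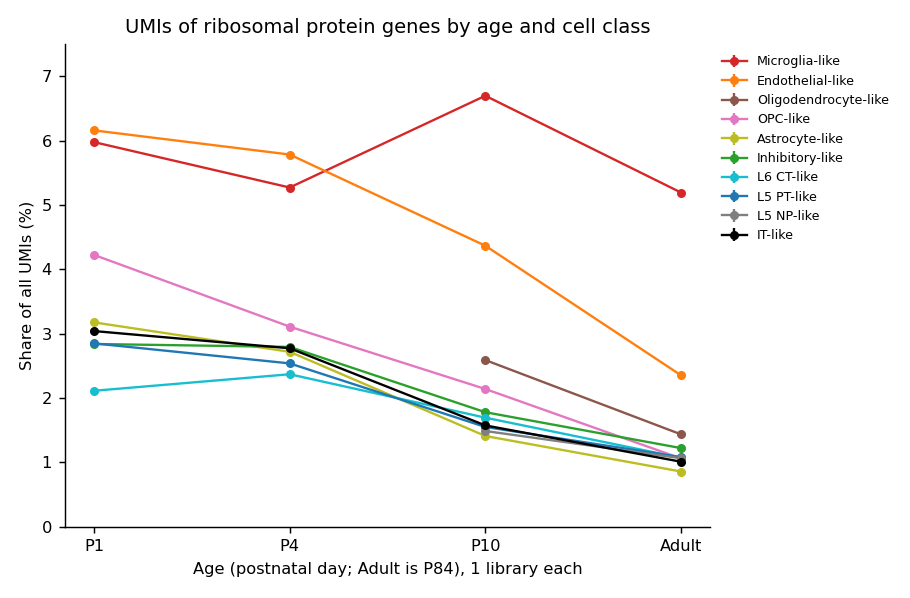
Share of all UMIs from the 86 ribosomal protein genes (%, vertical axis) by age (horizontal axis, 1 library each) in each marker-named class, with exact binomial 95% intervals that are mostly smaller than the points. Microglia-like cells lie between 5.19% and 6.70% at every age, whereas IT-like cells go from 3.04% at P1 to 1.01% in the adult.

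The part of the canonical ribosomal protein UMIs that came from the small subunit was lower at each later age over all cells and in IT-like cells. Over all cells this part was 45.7% at P1 and 44.6% at P4, then 43.3% at P10 and 42.8% in the adult. In IT-like cells it was 45.6%, 44.4%, 42.5% and 41.1%, and in microglia-like cells, where P10 stood above P4, 48.2%, 47.6%, 47.9% and 46.9%. Both subunits were lower in adult IT-like cells than at P4: the 46 large subunit genes had a median log2 ratio of −1.42 and the 31 small subunit genes a median of −1.61.

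For each gene, the level in a class was expressed as CPM, its UMIs per 1000000 UMIs of genes that are neither mitochondrial nor ribosomal protein genes, so that a lower share of the family did not raise the others. A gene was called higher or lower at a ratio of at least 1.5 between groups that held at least 100 of its UMIs together. From P4 to the adult in IT-like cells, 79 of 83 ribosomal protein genes were lower by this rule and none was higher, where 34.3% of all 13820 genes were lower and 25.7% higher. The median log2 ratio of the 83 was −1.52, against −0.16 for all genes. Those not past the fold were the paralogs Rpl22l1, Rpl7l1 and Rpl36al, and Rps10 (−0.58), which had 70 UMIs at P4 and 32 in the adult. The ratio of Rps10 was beyond 1.5-fold without Scrublet-marked cells (−0.62) and with a stricter cell filter (−0.74). The number of genes called lower stayed at 79 in both settings, and the UMIs of Rps10 lay near the minimum of 100. Its interval in the main setting, −1.23 to 0.04, included 0. Rpl36al (−0.38) was past the fold over all excitatory clusters (−0.61). In the main setting 76 of the 77 canonical genes compared were thus lower.

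By step, 7 of 83 genes were lower and 1 higher from P1 to P4 (28.6% and 14.9% of all genes), with a median log2 ratio of −0.09. From P4 to P10, 72 of 83 were lower (22.7% of all genes) with a median of −0.82, and none was higher, against 18% of all genes. From P10 to the adult, 50 of 82 were lower (21.9% of all genes) with a median of −0.65, and again none was higher, against 19.1%. At 1.5-fold, members were thus less often called than genes in general between P1 and P4, and more often called lower in the later steps. At 2-fold this did not hold for the last step: 6 of 82 members were lower from P10 to the adult, against 11.5% of all genes, whereas 17 of 83 were lower from P4 to P10, against 10.1%. From P1 to P4, 4 were lower and 0 higher at 2-fold, against 16.6% and 7.41% of all genes.

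**Figure D2:**
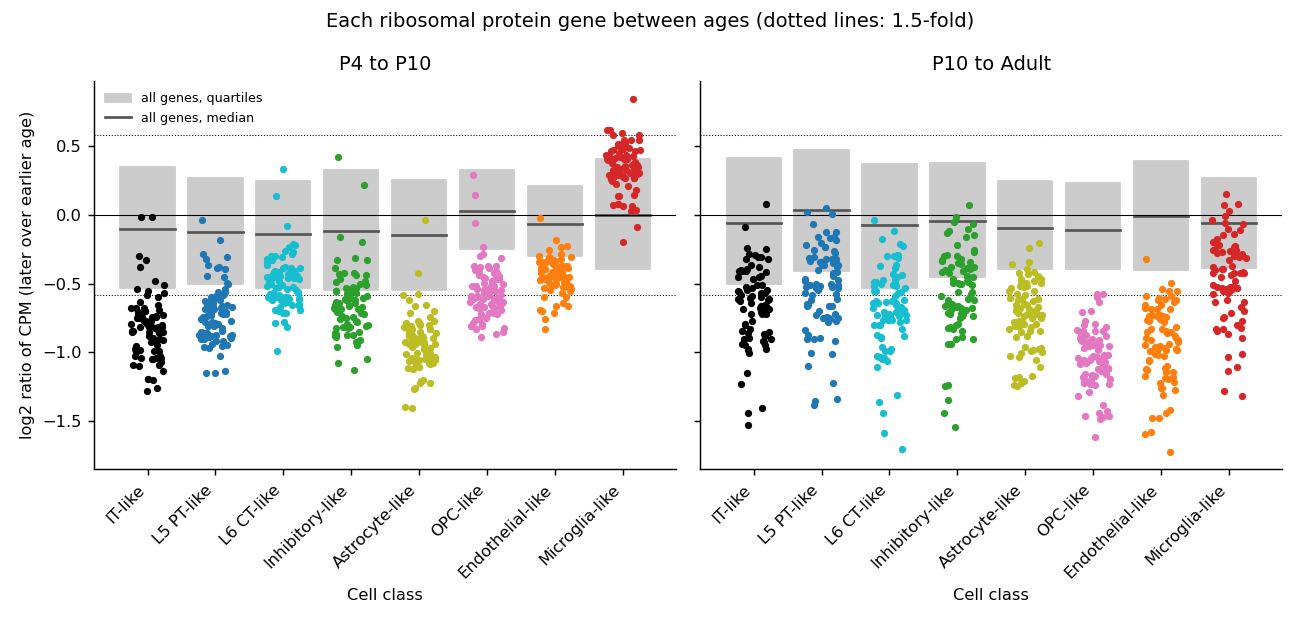
Log2 ratio of CPM between ages (vertical axis) for each ribosomal protein gene (points) in 8 classes (horizontal axis), for the steps P4 to P10 and P10 to the adult; grey boxes and bars give the quartiles and median of all genes. In IT-like cells the points have a median of −0.82 and then −0.65, while endothelial-like points lie mostly within 1.5-fold from P4 to P10 and have a median of −0.91 afterwards.

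The P stalk, built of Rplp0, Rplp1 and Rplp2, recruits the elongation factors to the large subunit. In IT-like cells the level of Rplp0 was 570.0 CPM at P1 and 284 at P4, then 124 at P10 and 45.6 in the adult. Its log2 ratio of the adult over P4 was −2.64 (−2.69 to −2.59), the lowest of the 83 genes. Rplp1 had 877, 984, 588 and 314 CPM and Rplp2 had 327, 397, 248 and 155 CPM in age order, with log2 ratios of −1.65 and −1.36. Within 1 stalk, Rplp0 was thus lower at every step, whereas Rplp1 and Rplp2 were highest at P4. In microglia-like cells Rplp0 had 962, 546, 726 and 359 CPM (−0.60 from P4 to the adult), while Rplp1 had 1888, 1789, 2185 and 2429.8 CPM (0.44) and Rplp2 had 762, 837, 1203 and 1009 CPM (0.27).

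Rpsa, a small subunit protein that is also the laminin receptor precursor, had 413 CPM at P1 and 478 at P4, then 247 at P10 and 85.5 in the adult in IT-like cells. Its log2 ratio from P4 to the adult was −2.48 (−2.52 to −2.45), and it was past the fold in 8 of 8 classes. In microglia-like cells Rpsa had 662, 788, 831 and 334 CPM, so it was near 1 level at P4 and P10 and lower in the adult, by −1.24 on the log2 scale from P4. In endothelial-like cells its level was 436, 614, 431 and 155 CPM.

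Rps12, a protein of the small subunit head, had 523, 563, 235 and 106 CPM in IT-like cells (−2.41 from P4 to the adult). Rpl10a had 149, 162, 73.7 and 31.4 CPM (−2.37), and Rps2, which lies at the mRNA entry channel, had 416, 521, 325 and 123 CPM (−2.08). Rplp0, Rpsa, Rps12, Rpl10a and Rps2 had the 5 lowest ratios of the family in IT-like cells. Rplp0, Rpsa, Rpl10a, Rps2, Rpl29 and Rps19 were lower in 8 of 8 classes, with median log2 ratios of −2.26, −2.25, −2.15, −2.01, −1.79 and −1.72, and Rps12 in 7 of 8 with a median of −2.00. Reads of some of these genes may be shared with copies elsewhere: 88.5% of the 75-base words in the last 300 bases of Rps12, 85.4% of those of Rpl10a and 64.6% of those of Rps2 also stood in other transcripts, and 0% of those of Rplp0 and Rpsa.

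At the other end of the range, Rpl22l1 had 63.6 CPM at P1 and 83.9 at P4, then 82.9 at P10 and 78.2 in the adult in IT-like cells, a log2 ratio of −0.10 (−0.15 to −0.05) from P4 to the adult. Rpl7l1, a paralog of Rpl7, had 59.2, 44.6, 36.3 and 38.4 CPM (−0.22). Rpl36al was sparse, with 3.00 CPM at P4 and 2.31 in the adult (−0.38). Among canonical genes the highest ratios were those of Rps10, which was sparser still at 0.622 and 0.415 CPM, and of Rps21, at 245, 177, 127 and 107 CPM (−0.72). Rps21 was past the fold in 5 of 8 classes.

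**Figure D3:**
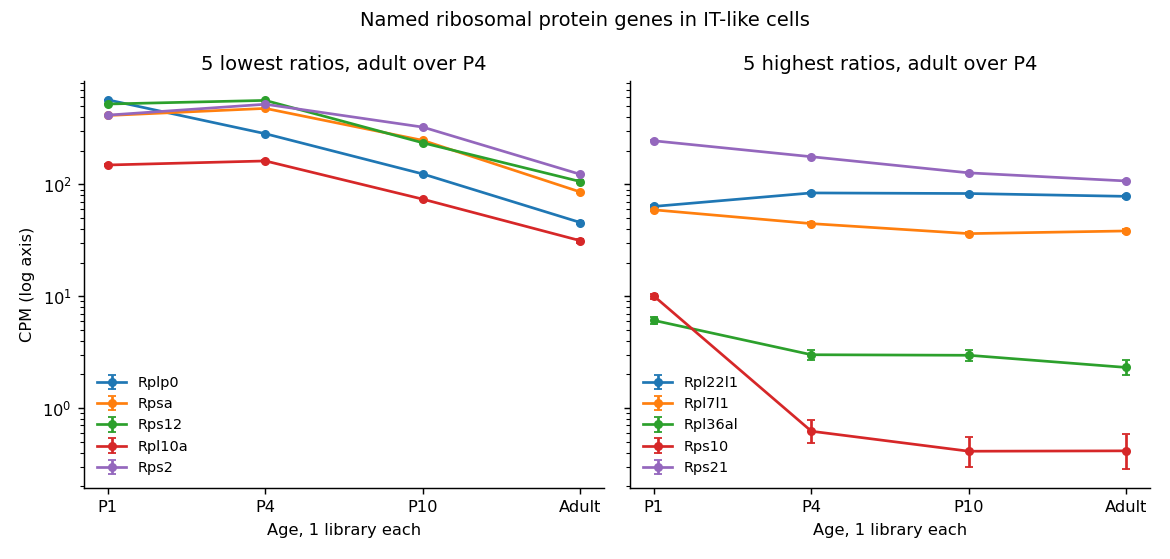
Level (CPM, log axis) in IT-like cells at each age (horizontal axis, 1 library each) of the 5 genes with the lowest and the 5 with the highest ratio of adult over P4, with exact 95% counting intervals. Rplp0 goes from 284 CPM at P4 to 45.6 in the adult, while Rpl22l1 stays between 63.6 and 83.9 CPM at all ages.

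Rpl5 and Rpl11 form the 5S particle with 5S ribosomal RNA and, outside the ribosome, bind the p53 regulator Mdm2. Their ratios in IT-like cells were close to the median of the family: Rpl5 had 684, 566, 316 and 197 CPM and Rpl11 had 201, 189, 97.6 and 64.9 CPM, with log2 ratios of −1.52 and −1.54 from P4 to the adult. In microglia-like cells these ratios were −0.21 and −0.03, and the interval of the latter, −0.22 to 0.16, included 0. Rps6, the target of the S6 kinases, had 379.7, 368, 203 and 164 CPM in IT-like cells (−1.17) and a log2 ratio of −0.22 in microglia-like cells.

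The genes with the largest differences in each step were as follows in IT-like cells. From P1 to P4, Rps10 had 1549 UMIs (10 CPM) at P1 and 70 UMIs (0.622 CPM) at P4, a log2 ratio of −4.01, and it overlaps the read-through gene RPS10-NUDT3 on the same strand. Among the other low ratios were those of Rpl36al (−1.02) and Rplp0 (−1.01), and the highest were Rpl10 (0.76), Rps19bp1 (0.55), Rps27rt (0.45), Rpl9 (0.44) and Rpl22l1 (0.40). The pipeline version differed between these libraries, and its part in these values was not tested.

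From P4 to P10 the lowest ratios were those of Rps19 (−1.28), a protein of the small subunit head whose human gene is mutated in Diamond-Blackfan anaemia, and, among others, of Rps12 (−1.26), Rplp0 (−1.20) and Rpl10 (−1.20). The highest were Rpl36al (−0.02), Rpl22l1 (−0.02), Rpl7l1 (−0.30), Rpl41 (−0.32) and Rps19bp1 (−0.38). All the 75-base words at the 3′ end of Rpl10, which was among the highest from P1 to P4 and among the lowest from P4 to P10, also stood in other transcripts. From P10 to the adult the lowest were Rpsa (−1.53), Rplp0 (−1.44), Rps2 (−1.40), Rpl10a (−1.23) and Rps12 (−1.15), and the highest Rpl7l1 (0.08), Rpl22l1 (−0.08), Rps21 (−0.24), Rpl13a (−0.24) and Rpl24 (−0.28). Rps12 and Rplp0 stood among the 5 lowest in both steps, and Rpl22l1 and Rpl7l1 among the 5 highest in both.

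The other classes were compared in the same way from P4 to the adult. In L5 PT-like cells 78 of 82 genes were lower (30.3% of all genes), in L6 CT-like cells 76 of 81 (35.6%) and in inhibitory-like cells 77 of 82 (33.5%), with medians of −1.22, −1.16 and −1.20. In astrocyte-like cells 81 of 81 were lower (32.9%), in OPC-like cells 81 of 81 (21.7%) and in endothelial-like cells 80 of 80 (23.9%), with medians of −1.59, −1.58 and −1.33. No ribosomal protein gene was higher in any of these 6 classes, where 23.7%, 21.3%, 23.3%, 17.7%, 18.4% and 23.3% of all genes were, in the same order.

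The step at which genes were past the fold differed between classes as the shares did. In astrocyte-like cells 77 of 81 genes were lower from P4 to P10 (23.2% of all genes). In endothelial-like cells 10 of 81 were lower in that step (7.77%) and 76 of 81 from P10 to the adult (17%). In OPC-like cells 40 of 81 were lower from P4 to P10 (10.1%) and 78 of 80 from P10 to the adult (13.5%).

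In microglia-like cells 10 of 80 genes were lower from P4 to the adult (25.7% of all genes) and none was higher (23.8%), with a median log2 ratio of −0.09 against −0.03 for all genes. Among the 10 were Rps27l (−1.30), Rpsa (−1.24), Rps2 (−1.21), Rpl10a (−0.97), Rps19 (−0.87), Rpl41, Rpl29, Rplp0 and Rpl15. From P4 to P10 none was lower (16.8% of all genes) and 4 were higher, among them Rps27rt (0.85), Rpl35a (0.62) and Rps29 (0.60), where 17.6% of all genes were higher, and the median was 0.35. From P10 to the adult 22 of 80 were lower (14.8%), with a median of −0.42. The share of members past the fold in microglia-like cells was therefore below that of genes in general from P4 to the adult and above it from P10 to the adult.

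Within a library, the shares of the classes were compared with that of IT-like cells. The share in microglia-like cells was 1.97 times that of IT-like cells at P1 and 1.90 at P4, then 4.25 at P10 and 5.14 in the adult. In endothelial-like cells the ratio was 2.03, 2.09, 2.77 and 2.33. In the adult the order from the lowest share was astrocyte-like (0.859%), IT-like (1.01%), OPC-like (1.06%), L5 NP-like (1.07%), L6 CT-like (1.07%), L5 PT-like (1.08%), inhibitory-like (1.22%), oligodendrocyte-like (1.44%), endothelial-like (2.35%) and microglia-like (5.19%). The counting intervals of OPC-like, L5 NP-like and L6 CT-like cells overlapped, and all 3 lay below that of L5 PT-like cells. These intervals leave out the spread between cells, and the order depended on the pooling of UMIs. As a mean over cells, OPC-like cells (1.07%) stood above L5 PT-like cells (1.05%), and L6 CT-like (0.997%) and L5 NP-like cells (0.988%) below them. The 2 adult microglia-like clusters had 3.73% and 5.36%. Adult microglia-like cells held fewer UMIs of all genes (4563 per cell on average) than IT-like cells (20359), and a mean of 237 and 206 ribosomal protein UMIs per cell.

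By gene, 80 of 82 members were higher in adult microglia-like than in adult IT-like cells, where 33.6% of all genes were, with a median log2 ratio of 2.36. Rpl22l1 (0.01) and Rps19bp1 (−0.25) were the exceptions. In adult endothelial-like cells 75 of 82 were higher (29.1% of all genes; median 1.19). In adult oligodendrocyte-like cells, which myelinate axons, 37 were higher and 2 lower (26.1% of all genes higher and 38.7% lower; median 0.54).

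In adult inhibitory-like cells 1 gene was higher, Rps12 at 0.78 (18.7% of all genes), and in astrocyte-like cells 1 was higher, Rps27l at 1.35 (29.2%), and 4 were lower (33.1%). In OPC-like cells 3 were higher, Rpl13 (2.08), Rps27l (1.72) and Rpl18 (0.79), where 34.8% of all genes were, and 3 were lower, Rpl36al (−0.80), Rpl41 (−0.70) and Rpl22l1 (−0.59), where 18.3% of all genes were. Rpl13 overlaps the gene Gm20388 on the same strand, and 81.4% of its 75-base words at the 3′ end stood in other transcripts. At P4, 73 of 82 were higher in microglia-like (28.8%; median 0.96) and 79 in endothelial-like cells (28%; median 1.08).

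Across the 10 classes of the adult library the log2 range of a gene had a median of 2.65 over 82 genes. The highest class was microglia-like for 79 of them and the lowest astrocyte-like for 51. The range and both counts were taken for members only, so no value over all genes stands beside them. Rps12 had the widest range, 3.95, from 106 CPM in IT-like to 1641 CPM in microglia-like cells; it had 182 CPM in inhibitory-like, 280.4 in oligodendrocyte-like and 563 in endothelial-like cells. Rps9, a protein that guards decoding accuracy, went from 183 CPM in IT-like to 2234 in microglia-like cells (3.61). Rplp1 and Rpl35a were lowest in astrocyte-like cells, at 232 and 119.7 CPM, and had 2429.8 and 1179 CPM in microglia-like cells (3.39 and 3.30). The narrowest range was that of Rps19bp1, 1.01.

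**Figure D4:**
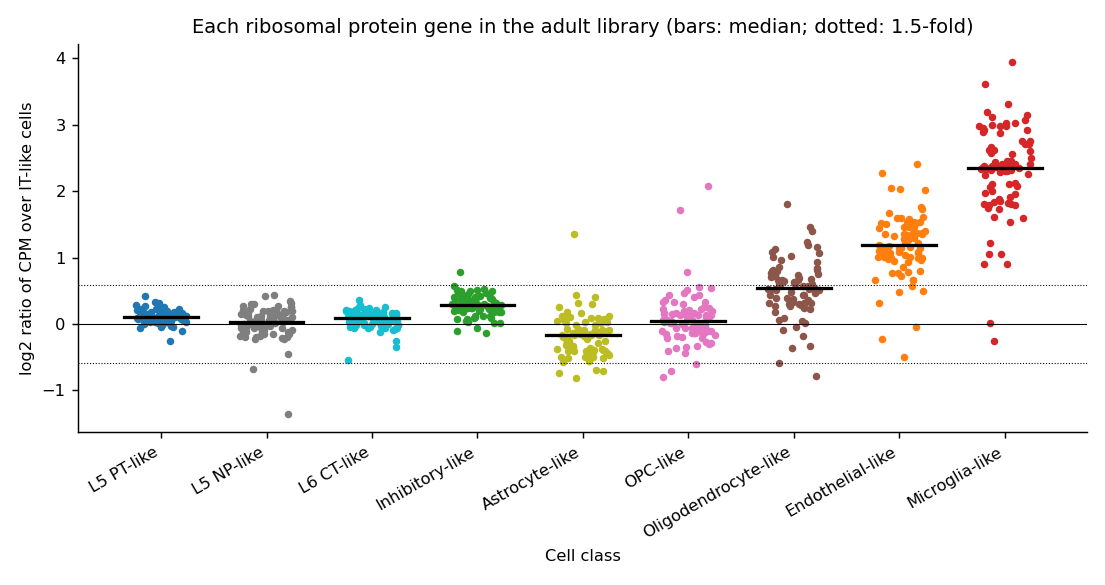
Log2 ratio of CPM over IT-like cells (vertical axis) for each ribosomal protein gene (points) in 9 other classes of the adult library (horizontal axis), with the median as a bar. The microglia-like points have a median of 2.36 and the endothelial-like ones of 1.19, while those of the other neurons lie mostly within 1.5-fold.

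Paralogs can take the place of their parent protein in the ribosome, and Rpl22l1 and Rpl22, which encode large subunit proteins that bind RNA, are such a pair. In IT-like cells Rpl22l1 was 17.1% of the UMIs of the pair at P1 and 25.3% at P4, then 38.6% at P10 and 52.8% in the adult (51.9% to 53.7%). The level of Rpl22 there was 309, 248, 132 and 70 CPM, against 63.6 to 83.9 CPM for Rpl22l1. In inhibitory-like cells the part of Rpl22l1 was 23.3%, 28.2%, 44.7% and 59.9%, in L5 PT-like cells 18.3%, 35.6%, 47.4% and 62.5%, and in L6 CT-like cells 15.5%, 29.0%, 41.4% and 53.5%. All 4 neuronal classes named at every age thus had a higher part at each later age, and adult L5 NP-like cells had 59.2%.

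The glial and endothelial classes had a narrower range. Rpl22l1 was 33.5%, 31.3%, 33.9% and 38.7% of the pair in astrocyte-like cells, 27.0%, 27.1%, 28.9% and 33.8% in OPC-like cells and 30.7%, 28.4%, 29.4% and 25.7% in endothelial-like cells. In microglia-like cells it was 24.3%, 24.4% (20.2% to 29.0%), 21.1% and 17.1% (15.5% to 18.8%), where Rpl22 had 400.5, 349, 432 and 383 CPM. Of the 75-base words at the 3′ end, 58.8% of those of Rpl22l1 and 4.42% of those of Rpl22 stood in other transcripts, so the level of Rpl22l1 is less certain.

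**Figure D5:**
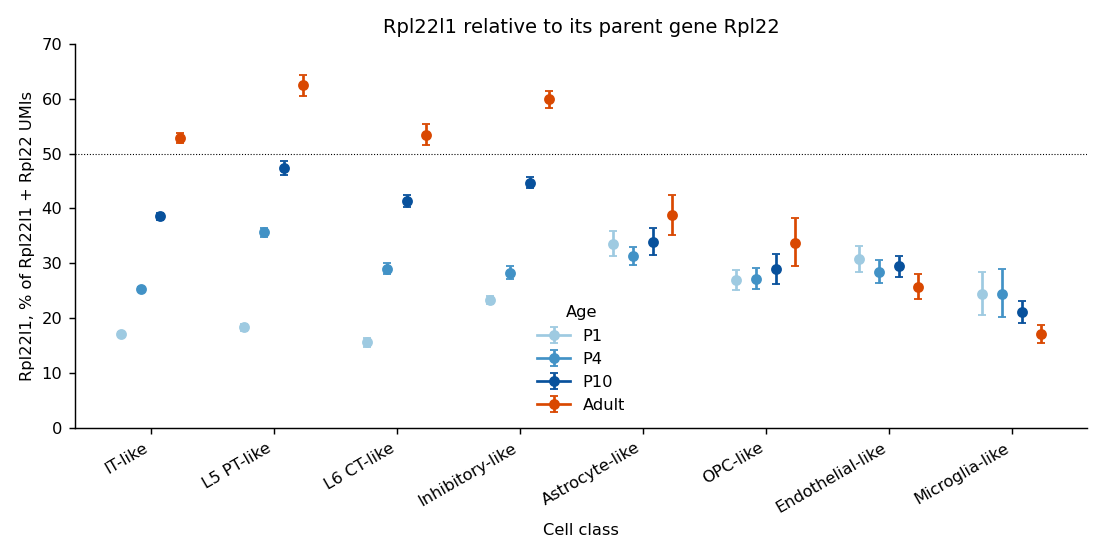
Rpl22l1 as a percentage of the UMIs of Rpl22l1 and Rpl22 together (vertical axis) by class (horizontal axis) and age (colours, 1 library each), with exact binomial 95% intervals. In IT-like cells it goes from 17.1% at P1 to 52.8% in the adult, and in microglia-like cells from 24.3% to 17.1%.

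Rpl7l1, which acts in ribosome assembly, was 12.1%, 11%, 15.9% and 24.7% of the UMIs of Rpl7l1 and Rpl7 in IT-like cells, and so also made up more of its pair at each age after P4. Rps27l, a p53-induced paralog, was 8.47%, 6.22%, 5.60% and 4.72% of its pair with Rps27 in IT-like cells. In microglia-like cells Rps27l was 9.82%, 7.25%, 4.59% and 2.08% of the pair, with 107, 96.1, 84 and 39.0 CPM beside 987, 1229.6, 1744 and 1835 CPM of Rps27. The 4 values of Rps27l and of Rps27 in microglia-like cells thus went in opposite directions; all the 75-base words at the 3′ end of Rps27 also stood in other transcripts.

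Rpl36al was 1.81%, 0.928%, 1.79% and 2.28% of its pair with Rpl36a in IT-like cells. The remaining paralogs were near the limit of detection over all cells: Rpl39l had 50, 57, 60 and 82 UMIs, of which 32 of the adult ones lay in microglia-like cells, and was 0.0261% to 0.165% of its pair with Rpl39, Rpl3l was 0.0275% to 0.0753% of its pair with Rpl3, and Rpl10l had 1 or 2 UMIs per library.

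The ratios in IT-like cells were also read by start tract and by shared sequence. From P4 to the adult, 13 of the 14 compared genes with a tract at the annotated start were lower (median −1.31), Rps10 being the exception. So were 46 of 49 with an entry and no tract at that exact base (−1.54) and 20 of 20 with no entry (−1.48). Genes without a tract at that base can still have a run of pyrimidines close by, as Rps12 has, so this is not a split by TOP tract. Of the 27 compared genes with no 75-base word at the 3′ end shared with another transcript, 26 were lower (median −1.35), and of the 56 with shared words 53 were lower (−1.53). Over all 13820 genes, 34.3% were lower in this comparison.

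Genes outside the symbol rule that act with the ribosome were compared in IT-like cells from P4 to the adult. Of the ribosomal proteins with other symbols, Fau (241 and 106 CPM, −1.18) and Rack1 (296 and 69.6 CPM, −2.09) were lower. Among 6 elongation factors, 5 were lower, with Eef1a1 at 3418 and 1072 CPM (−1.67), and 1 was higher, Eef1a2, which replaces Eef1a1 in mature neurons and muscle, at 148 and 732 CPM (2.30). Of 24 initiation factors 14 were lower and none higher (median −0.61), among them the helicase subunit Eif4a1 (−1.81), while its paralog Eif4a2 had 0.45. Of 23 ribosome biogenesis factors 17 were lower (median −0.77), including the nucleolar proteins Fbl (−1.99), Ncl (−1.04) and Npm1 (−1.40).

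Of 10 other transcripts known to carry a TOP tract 8 were lower (median −1.39), most of which also stand in the other lists. Of those that stand in no other list, Hnrnpa1 (−2.40) and Tpt1 (−1.23) were lower, and Nap1l1 had −0.05. The 3 Myc genes, transcription factors that drive ribosome synthesis, were lower, with Myc at 70.5 and 2.18 CPM (−5.01). Of 15 genes of the mTOR pathway and TOP regulators, 3 were lower (Eif4ebp2, Rps6kb2 and Pabpc1) and the median was −0.02. Of 77 mitochondrial ribosomal proteins, which build the separate ribosome of mitochondria, 16 were lower and 3 higher (median −0.20), against the 79 of 83 of the cytosolic genes. In all of these lists the background was the 34.3% lower and 25.7% higher of all genes given above.

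In microglia-like cells the lists were compared over the same step, in which 10 of 80 cytosolic ribosomal protein genes (median −0.09) and 25.7% of all genes were lower. Of the initiation factors 13 of 24 were lower (median −0.62), of the ribosome biogenesis factors 14 of 20 (−0.85) and of the mitochondrial ribosomal proteins 28 of 57 (−0.55). Of the other transcripts known to carry a TOP tract 4 of 10 were lower, with a median of −0.06. Of the 6 elongation factors 1 was lower and 1 higher (median 0.28), and of 13 genes of the mTOR pathway and TOP regulators 1 was lower and 1 higher (−0.11). Fau and Rack1 were not past the fold, and the 1 Myc gene with enough UMIs was lower (−1.51).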

How the data were processed

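For each library the authors deposited raw UMI counts by cell and gene, from the BD Rhapsody pipeline (version 1.11 for P1 and 1.8 for the others, per the file headers) on GRCm38 with GENCODE vM19; intronic reads were not excluded at P1. Counts were used as deposited. The study's cell limits were used (at least 1000 UMIs and 1000 genes, at most 15% mitochondrial UMIs), but its removal of doublets and of mixed clusters was not repeated. The study's methods also name mitochondrial and ribosomal genes among those filtered out, whereas both were kept in the counts used here. Within each library, 2000 variable genes without ribosomal protein, -ps and mitochondrial genes, 30 principal components and the shared part of 20 exact nearest neighbours gave Leiden clusters at resolution 0.5 (scanpy 1.11.5, igraph 0.11.9), which were named by marker scores. Exact neighbours were chosen after values from approximate ones, which did not repeat exactly, had been seen. Scrublet (rate 0.06) marked 5.79% to 9.93% of cells, which were kept. UMIs were summed per class. Shares have exact Clopper-Pearson and CPM ratios exact conditional binomial intervals (scipy 1.17.1). UMIs in the 4 libraries differed by library, and counting intervals narrow with depth. The 1.5-fold rule and the interval of a ratio were tested on simulated counts that held counting error only. That test held no variation between cells, mice or libraries, and it did not cover clustering or naming. The members and lists were chosen with earlier results of these data known. Genes were named by rule: the 5 lowest and 5 highest CPM ratios of each step in IT-like cells, the 5 widest adult ranges, the paralog pairs, the P stalk, the 5S particle, Rpsa and Rps6; some genes that this rule takes are not reported here, and genes named in small counts outside this rule were chosen after their values were seen. The start windows are from RefSeq (GRCm38.p6), and 3′ end words of 75 bases and overlaps from GENCODE M21 transcripts. Alternatives were cells without Scrublet marks, stricter filters, resolution 1.0, other members, weights, denominators, folds and count minimums. With other cells or another resolution, clusters were made and named anew, so a class could hold other cells. All excitatory clusters in place of IT-like ones was chosen after seeing the data.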

Additional observations from a re-analysis of the deposited data

Results flagged for a closer look

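Some classes went against the others. The share of ribosomal protein UMIs had a log2 ratio of P10 over P4 of 0.35 in microglia-like and −0.82 in IT-like cells, and of the 8 classes compared only the microglia-like one was higher at P10. Without Scrublet-marked cells the microglia-like shares were 5.95% at P4 and 6.85% at P10. From P1 to P4 the L6 CT-like cells, at 0.17, were the only ones of 8 classes that were higher at P4. Endothelial-like cells were also higher at P4 without Scrublet-marked cells (6.45% and 6.96%) and with the stricter cell filter (5.33% and 5.83%). The part of Rpl22l1 in its pair with Rpl22 differed between the adult and P4 by −7.32 percentage points in microglia-like cells and by 27.5 in IT-like cells. With 1 library per age, none of these differences between classes was tested.

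The 8 columns named -ps after a ribosomal protein gene, which the symbol rule left out, held 30477 UMIs at P1 and 56525 at P4, then 45366 at P10 and 24104 in the adult. Rpl10-ps3 was 17.7%, 37.6%, 46.5% and 52.2% of the UMIs of Rpl10-ps3 and Rpl10 at these ages, and all of the 75-base words in the last 300 bases of Rpl10 also stood in other transcripts.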

How the results depend on the processing

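Of the 22 values followed through 148 alternatives, no log2 ratio changed its sign. The counts of members and the percentages of a pair have no sign, so they could not change direction. The P1 and P4 shares of endothelial-like cells, whose direction turned, were not among the 22. In 93 alternatives a value moved by less than its counting interval or, for counts, by less than 1.5 times. The log2 ratio of the adult over the P4 share in all cells (−1.14) was −1.15 with the stricter cell filter, with canonical members and without mitochondrial UMIs, −1.14 with -ps columns added, −0.89 as a mean over cells and −0.98 with 8 classes weighted equally. In IT-like cells (−1.46) it was −1.53 without Scrublet-marked cells and at resolution 1.0, −1.44 with the stricter filter, −1.47 with canonical members, −1.45 with -ps columns, −1.54 as a mean over cells, −1.47 without mitochondrial UMIs and −1.36 over all excitatory clusters. The IT-like class did not hold the same number of cells in each of these settings: in place of 7664 at P4 it held 5152 without Scrublet-marked cells and 3708 at resolution 1.0, and in place of 4392 at P10 it held 1796 without marked cells. With the stricter filter and at resolution 1.0, no cluster of P4 was named OPC-like. The OPC-like comparisons from P4 could therefore not be repeated in these settings. The log2 ratio of the adult microglia-like over the IT-like share (2.36) was 2.40 without Scrublet-marked cells, with the stricter filter and without mitochondrial UMIs, 2.37 with canonical members and 2.43 as a mean over cells. From P1 to P4, 2 members in place of 1 were higher in IT-like cells without Scrublet-marked cells and at resolution 1.0. At 2-fold, the lower members in IT-like cells were 4 in place of 7 from P1 to P4 (and 0 in place of 1 higher), 17 in place of 72 from P4 to P10 and 6 in place of 50 from P10 to the adult. Without Scrublet-marked cells Rpl22l1 was 23.2% of its pair at P4, and over all excitatory clusters it was 28.4% at P4 and 54.7% in the adult, and Rpl7l1 11.4% of its pair at P4. The cause of these shifts was not tested. No paired analysis was possible because every label gives replicate 1 and each age is 1 library, so leaving out a replicate was not possible either. Low counts of UMIs, as for Rpl36al or in microglia-like cells of P1 and P4, limit single genes there.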
